A study of Homo sapiens with 12 samples.

Results

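The genes described here are HLA-B, HLA-C, HLA-E, HLA-F, B2M, TAP1, TAP2, TAPBP and NLRC5, taken by gene symbol as the human MHC class I genes and the genes for loading them with peptide. All 9 were found among the 70116 gene identifiers of the count table. Of these, 4 (NLRC5, B2M, HLA-B and TAPBP) had enough counts to be among the 16197 genes tested, and the other 5 had between 0 and 7 counts over all libraries together.

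MHC class I molecules display short peptides from inside the cell on its surface, where cytotoxic T cells and natural killer cells read them. HLA-B and HLA-C encode classical heavy chains and HLA-E and HLA-F non-classical ones, and B2M encodes beta-2 microglobulin, the light chain that they share. TAP1 and TAP2 form the transporter that carries peptides into the endoplasmic reticulum, and TAPBP encodes tapasin, which holds the heavy chain next to that transporter while peptides are exchanged. NLRC5 encodes a transactivator without DNA-binding activity of its own, which acts at class I promoters through the RFX, NF-Y and CREB/ATF proteins bound there. Interferon-gamma raises the transcription of these genes in most cell types, and tumours are known to lose class I display through many of these steps.

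RNA was sequenced from MiaPaCa-2 cells, a line established from a human pancreatic carcinoma, after RNA interference against single genes of citrate metabolism. The 4 groups were siControl, siSLC25A1, siACLY and siACO1, with 3 libraries each. SLC25A1 encodes the mitochondrial citrate carrier, ACLY the enzyme that makes acetyl-CoA from citrate in the cytosol, and ACO1 the cytosolic aconitase, which when it lacks its iron-sulphur cluster binds RNAs of iron metabolism. The labels give one cell line and no other allele or agent, and they do not give the siRNA sequences, the number of siRNAs for each gene, the time after transfection or the medium at harvest, so off-target effects of an siRNA and effects of its target cannot be told apart. The labels do not say that the replicates were separate cultures, so p-values measure only the spread between these libraries, which may be technical.

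Library totals ran from 24159424 to 43792811 counts, and levels are given as CPM, the library-scaled counts per 1e6, after scaling by trimmed mean of M values (TMM), as mean ± SD over 3 libraries. The targeted genes were low in the libraries labelled for them: SLC25A1 fell from 134 ± 0.691 to 11.7 ± 1.18 CPM in siSLC25A1, ACLY from 499 ± 7.55 to 36.1 ± 0.504 CPM in siACLY, and ACO1 from 45.0 ± 1.57 to 1.68 ± 0.331 CPM in siACO1 (edgeR quasi-likelihood F test, adjusted p = 1.52e-26, 4.15e-32 and 2.43e-25). Replicate 3 of siACO1 stood apart from the other 2 libraries of its group. Its chi-square per degree of freedom over the tested genes was 11.3 and 12.1 against them. Every other pair of replicates lay between 2.27 and 5.50. Of the 6 markers fixed for the cells, KRT8, KRT18, KRT19 and VIM were present in every library, while EPCAM and CDH1 had 5 and 7 counts over the 12 libraries. In siACO1, KRT8 fell from 2278 to 1280 CPM, KRT18 from 1325 to 774 CPM and KRT19 from 88.5 to 52.0 CPM. The markers differed in the other knockdowns as well. KRT19 was at 121 CPM in siSLC25A1 and 141 CPM in siACLY, and VIM went from 3561 to 4558 CPM in siACLY. In siSLC25A1, KRT8 was at 2011 CPM and KRT18 at 1151 CPM. Of 7 fibroblast and endothelial markers 1 was tested, COL1A2, which rose in siACO1 from 885 to 1576 CPM (log2 fold change 0.83). The summed level of 10 leukocyte markers was 3.75 to 4.61 CPM in siControl and 4.71 to 5.68 CPM in siSLC25A1. It was 6.45 to 8.25 CPM in siACLY and 6.08 to 6.83 CPM in siACO1. PTPRC, CD3E and MS4A1 were at 0 in all 12 libraries. PTPRC had 14 transcripts outside the primary assembly of GENCODE 29, so that, as for the MHC genes below, its 0 cannot be read as absence. This sum was higher in every knockdown than in siControl, as HLA-B was, while TAPBP was lower, and most of it was CD8A and LYZ. The part of these markers in the class I values below was not tested. In bulk RNA, fewer cells that express a gene and less of its RNA in each cell cannot be told apart.

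NLRC5 is known to act at several class I pathway promoters. Those of HLA-B and B2M are printed here, picked after their values were seen, with that of HLA-C as a second classical heavy chain. Each line runs 5′ to 3′ on the gene's own strand from 250 to 41 bases before the transcription start, in RefSeq's sequence for GRCh38.p14, which is the reference and not the allele of this cell line. HLA-B lies at chr6:31357220-31357429 (minus strand), HLA-C at chr6:31272133-31272342 (minus strand) and B2M at chr15:44711267-44711476 (plus strand). Capitals mark 4 short motifs, searched on both strands: TTTCNNTT or AANNGAAA as found in interferon-response elements, TGACG or CGTCA as found in CREB/ATF sites, ATTGG or CCAAT as bound by NF-Y, and an NF-kappaB motif (GGG, 2 bases of any kind, TT, 1 of any kind, CC, or its reverse complement). Neighbouring and overlapping matches run together as 1 stretch of capitals.
HLA-B: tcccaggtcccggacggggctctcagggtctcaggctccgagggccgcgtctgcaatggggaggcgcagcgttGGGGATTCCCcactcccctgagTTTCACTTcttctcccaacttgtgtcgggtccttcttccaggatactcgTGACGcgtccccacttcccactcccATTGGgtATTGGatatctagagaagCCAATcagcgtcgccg
HLA-C: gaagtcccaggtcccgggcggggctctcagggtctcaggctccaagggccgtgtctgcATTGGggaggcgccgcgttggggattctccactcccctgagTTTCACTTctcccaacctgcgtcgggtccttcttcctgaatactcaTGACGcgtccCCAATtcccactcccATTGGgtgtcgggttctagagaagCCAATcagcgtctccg
B2M: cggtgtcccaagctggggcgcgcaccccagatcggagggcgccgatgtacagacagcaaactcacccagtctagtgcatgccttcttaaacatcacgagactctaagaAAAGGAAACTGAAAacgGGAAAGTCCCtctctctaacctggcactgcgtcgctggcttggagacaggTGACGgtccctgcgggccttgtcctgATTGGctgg
HLA-B held 1 interferon-response type match, 1 CREB/ATF match, 3 NF-Y matches and 1 NF-kappaB match, and B2M held 2, 1, 1 and 1 of them. HLA-C held 1, 1, 4 and 0, so that the NF-kappaB letters were the ones it lacked in this window. In each of the 3 genes, the interferon-response letters were followed towards the start by the CREB/ATF letters and then by NF-Y letters. Over the same 210 bases of 35116 RefSeq promoters, the share holding at least 1 match was 17.8% for TTTCNNTT, 17.4% for TGACG, 28.8% for ATTGG and 4.21% for the NF-kappaB motif. The promoters not printed differed from these: HLA-F held 1 interferon-response, 0 CREB/ATF, 2 NF-Y and 0 NF-kappaB matches, TAP2 held 2, 0, 0 and 0, and TAPBP held 0, 0, 0 and 1. TAP1 had 2 entries, of which the first held 0 matches to any motif and the other 2, 0, 1 and 1. These matches describe the sequence only, and the part of the motifs or of NLRC5 in any change of level was not tested. Of the 9 genes, 7 had an entry among the promoter sequences, and HLA-E and NLRC5 had none.

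Before any change is read, the genome region of these genes has to be considered. In GENCODE release 29 on GRCh38, HLA-B (ENSG00000234745.14), HLA-C (ENSG00000204525.18), HLA-E (ENSG00000204592.9), HLA-F (ENSG00000204642.14), TAP1 (ENSG00000168394.13), TAP2 (ENSG00000204267.19) and TAPBP (ENSG00000231925.14) all lie in the MHC on the short arm of chromosome 6. Of the 200 protein-coding genes between 28000000 and 34000000 on that chromosome, 134 (67.0%) had 0 counts in all 12 libraries, against 175 of 838 (20.9%) on the rest of the chromosome. Genes that every cell uses were among them: DDX39B, an RNA helicase of mRNA splicing and export, and CSNK2B, the regulatory subunit of casein kinase 2, had 0 counts. ABCF1, a translation factor, had 1 count, the beta-tubulin gene TUBB 14 and the ribosomal protein gene RPS18 20 counts over the 12 libraries together, while the chaperone gene BAG6 had 401 (these 6 genes were chosen after their values were seen). The same region is the one that the human genome assembly also holds as alternative sequences: 165 of the 200 genes had transcripts in GENCODE 29 that lie outside its primary assembly. Over the whole genome, 601 of 1038 protein-coding genes with such transcripts (57.9%) had 0 counts, against 3668 of 18793 without (19.5%), and the median count over the 12 libraries was 0 against 1602. A count of 0 in this table therefore cannot be read as absence of the transcript, and the part of these copies in the low counts was not tested.

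**Figure D1:**
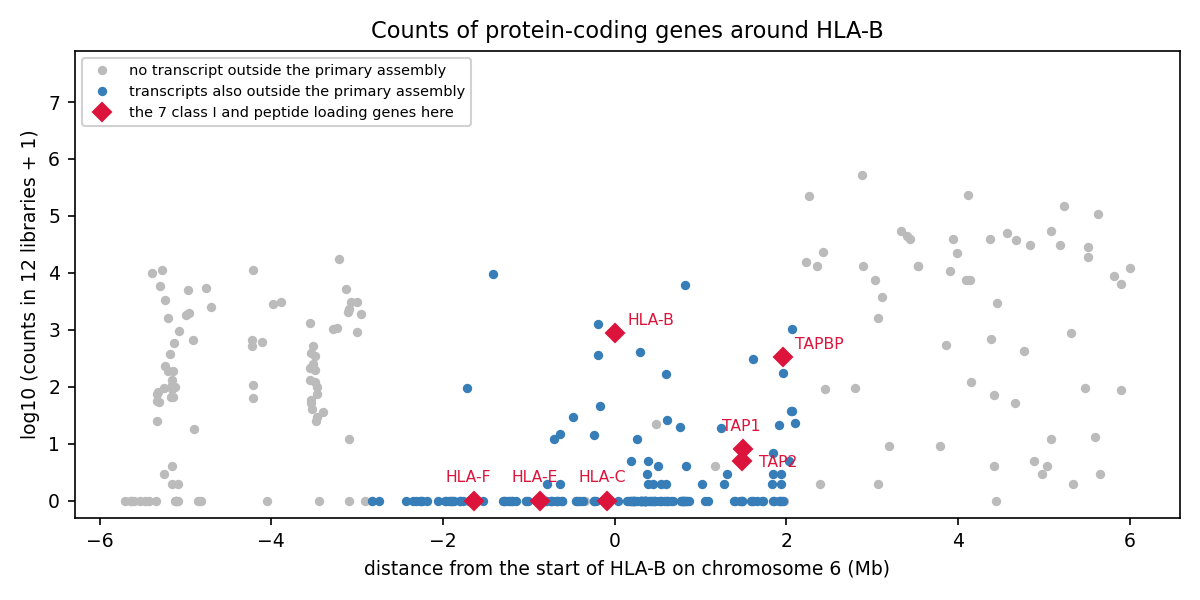
Counts of protein-coding genes by distance from the start of HLA-B on chromosome 6 (Mb), as log10 of the counts in 12 libraries plus 1. Grey points are genes without transcripts outside the primary assembly, blue points are genes with them, and red diamonds are HLA-B, HLA-C, HLA-E, HLA-F, TAP1, TAP2 and TAPBP. Most blue points lie at 0, and HLA-B (872 counts) and TAPBP (335 counts) stand among the few genes of the region above 100 counts.

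HLA-C, HLA-E and HLA-F had 0 counts in all 12 libraries. A count of 0 allows up to 3 counts, which is 0.0674 to 0.124 CPM depending on the library, for counting error alone. TAP1 had 2, 2 and 1 counts in the siControl libraries, 1 count in 1 library each of siACLY and siACO1, and 0 in siSLC25A1, and TAP2 had 2 counts in siSLC25A1 replicate 2 and 2 in siACO1 replicate 3. These 5 genes were below the filter for the test, so no change in HLA-C, in the non-classical heavy chains or in the peptide transporter could be measured here. All 5 had transcripts outside the primary assembly, between 18 (HLA-E) and 91 (HLA-F).

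HLA-B, B2M and TAPBP also had such transcripts, 48, 14 and 42 of them, and NLRC5 had 0. HLA-B lies at 31269491 to 31357188 on chromosome 6 (minus strand), and 18.9% of its 3051 exon bases overlap HLA-C or another gene, while TAPBP lies at 33299694 to 33314387 (minus strand) and overlaps no exon of another gene. B2M lies at 44711487 to 44718877 on chromosome 15 (plus strand) and NLRC5 at 56989485 to 57083531 on chromosome 16 (plus strand), both outside the MHC. Of the stretches of 31 bases in their transcripts, 6.78% in HLA-B, 9.81% in TAPBP, 1.79% in B2M and 0.319% in NLRC5 occur in transcripts of genes placed elsewhere. Genes whose place overlaps theirs were left out, so stretches that HLA-B shares only with HLA-C, which overlaps it, are not in the 6.78%. Copies outside the primary assembly were left out too, so these shares do not cover the transcripts counted above. What share of the reads of HLA-B and TAPBP reached their rows in the table was not tested, so their values are those of the counted reads, and how heavy chain alleles were separated by the counting is not given in the sources used here.

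Per kilobase of exon, the counted reads of B2M gave 8.99 CPM per kb in siControl, those of NLRC5 0.761, those of HLA-B 0.480 and those of TAPBP 0.269 CPM per kb. In siACLY HLA-B stood at 1.33, NLRC5 at 1.06 and TAPBP at 0.0838 CPM per kb. Since the share of reads that reached each row is unknown for the genes with copies, these values do not rank the genes by expression. NLRC5, B2M and HLA-B reached the minimum of the filter, 0.346 CPM before scaling, in all 12 libraries and TAPBP in 11, the exception being in siACLY.

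NLRC5, the transactivator of the pathway, was measured at 8.65, 9.99 and 9.65 CPM in siControl replicates 1 to 3 and at 12.9, 13.1 and 13.4 CPM in siACLY. All 3 siACLY libraries lay above all 3 controls, and the group means were 9.43 ± 0.695 and 13.1 ± 0.238 CPM. NLRC5 rose 1.39-fold in siACLY (log2 fold change 0.48, SE 0.12, 95% interval 0.22 to 0.73, edgeR adjusted p = 0.00346). In siACO1 the libraries stood at 14.7, 11.0 and 11.3 CPM, again all above the controls, with a mean of 12.3 ± 2.06 CPM. NLRC5 rose 1.30-fold there (log2 fold change 0.38, SE 0.12, edgeR adjusted p = 0.0188), a call that was lost without siACO1 replicate 1 (0.24, adjusted p = 0.147) or without siControl replicate 1 (0.32, adjusted p = 0.0947). The siSLC25A1 libraries stood at 6.35, 9.86 and 7.17 CPM, of which the second lay within the control range. Their mean was 7.79 ± 1.84 CPM and the log2 fold change −0.28 (95% interval −0.55 to −0.01, edgeR adjusted p = 0.151), which did not pass the test. Without siSLC25A1 replicate 2 the difference was −0.48 and passed it (edgeR adjusted p = 0.0097).

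B2M, the light chain, was measured at 51.7, 58.3 and 53.9 CPM in siControl, with a mean of 54.6 ± 3.37 CPM. In siACO1 it stood at 60.6, 65.4 and 68.8 CPM, with every library above every control, and it rose 1.19-fold (log2 fold change 0.25, SE 0.06, 95% interval 0.13 to 0.37, edgeR adjusted p = 0.000766). Without siACO1 replicate 3, the library that stood apart, the log2 fold change was 0.20 (edgeR adjusted p = 0.00338). In siACLY the 3 libraries gave 63.3, 65.6 and 57.4 CPM, of which the last lay within the control range. B2M rose 1.14-fold in siACLY (log2 fold change 0.18, SE 0.06, edgeR adjusted p = 0.0108), and this call was lost in 4 of the 6 fits that left out 1 library of this comparison. The losses came without siControl replicate 1 (0.14, adjusted p = 0.0915), siControl replicate 3 (0.17, adjusted p = 0.0526), siACLY replicate 1 (0.16, adjusted p = 0.0591) or siACLY replicate 2 (0.14, adjusted p = 0.0931). In siSLC25A1 the libraries lay close together at 58.2, 59.9 and 59.3 CPM, and siControl replicate 2 fell between them. The difference from siControl was 0.11 (95% interval −0.00 to 0.23, edgeR adjusted p = 0.175) and did not pass the test.

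HLA-B, a classical heavy chain, rested on 40 to 174 counts per library. Its levels were 1.12, 1.53 and 1.75 CPM in siControl and 3.91, 3.72 and 4.55 CPM in siACLY. The lowest siACLY library was thus above the highest control, and the means were 1.46 ± 0.322 and 4.06 ± 0.433 CPM. HLA-B rose 2.79-fold in siACLY (log2 fold change 1.48, SE 0.19, 95% interval 1.10 to 1.86, edgeR adjusted p = 2.62e-07), and the call held in all 13 alternative settings. In siSLC25A1 the levels were 2.16, 2.33 and 1.99 CPM, all above the controls, and the log2 fold change was 0.58 (SE 0.20, 95% interval 0.16 to 0.99, edgeR adjusted p = 0.0466). This rise of 1.49-fold sat at the threshold: it lost its call in 8 of 13 alternative settings, with adjusted p-values between 0.0534 and 0.240 there, and was smallest without siControl replicate 1 (0.41). In siACO1 the levels were 2.41, 1.85 and 1.77 CPM, again above every control, but the difference of 0.46 (95% interval 0.04 to 0.88, edgeR adjusted p = 0.0794) did not pass the test. It passed without siControl replicate 3 (0.59, edgeR adjusted p = 0.0494).

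TAPBP, which encodes tapasin, rested on 7 to 48 counts per library and was the tested gene that moved the other way. Its levels were 1.31, 1.33 and 1.43 CPM in siControl and 0.382, 0.272 and 0.617 CPM in siACLY. All 3 siACLY libraries lay below the lowest control, and the group means were 1.36 ± 0.0630 and 0.424 ± 0.176 CPM. TAPBP fell to 31.1% of siControl in siACLY (log2 fold change −1.69, SE 0.32, 95% interval −2.34 to −1.03, edgeR adjusted p = 0.000108), and the call held in the 12 alternative settings in which it was tested. In siSLC25A1 the libraries stood at 1.05, 0.845 and 0.663 CPM, all below the controls, with a log2 fold change of −0.66 (95% interval −1.26 to −0.06, edgeR adjusted p = 0.121) that did not pass the test. In siACO1 they stood at 1.17, 1.33 and 0.738 CPM and overlapped the controls (log2 fold change −0.33, 95% interval −0.91 to 0.24, edgeR adjusted p = 0.381). The lowest of these was replicate 3, and without it the difference was −0.11 (edgeR adjusted p = 0.805).

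**Figure D2:**
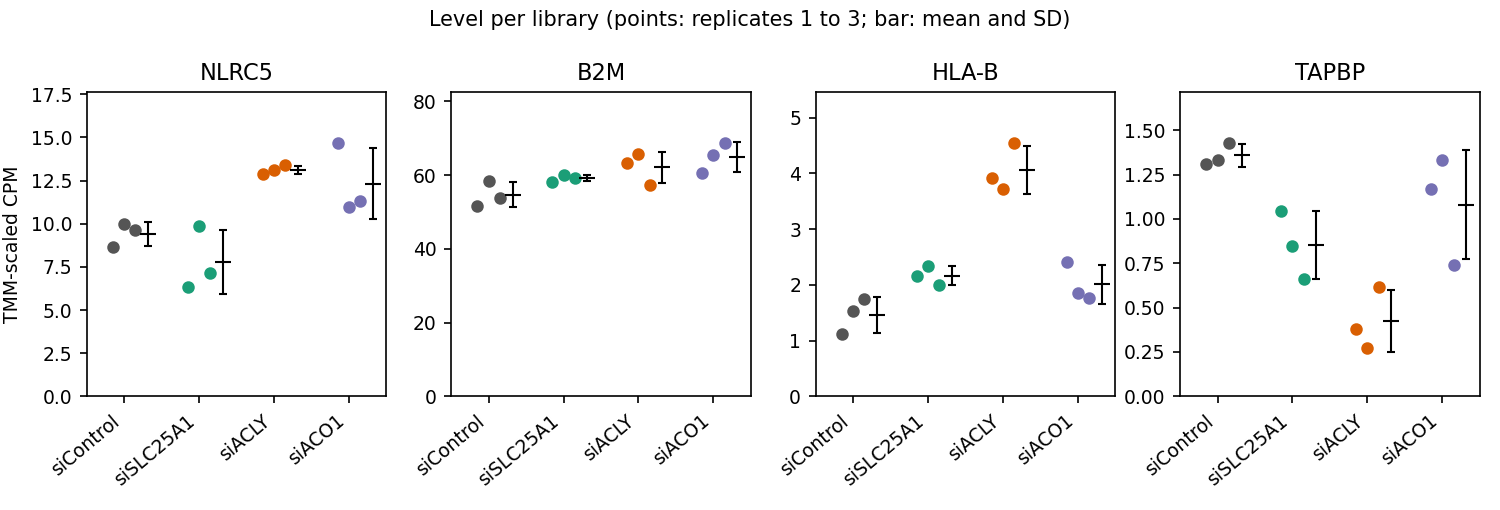
TMM-scaled CPM of NLRC5, B2M, HLA-B and TAPBP in each library (points) by siRNA group, with the group mean (bar) and SD (error line, n = 3); each panel has its own axis from 0. The 3 siACLY libraries lie above the 3 siControl libraries for NLRC5 (12.9 to 13.4 against 8.65 to 9.99 CPM) and HLA-B (3.72 to 4.55 against 1.12 to 1.75 CPM) and below them for TAPBP.

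By count, all 4 tested genes were called in siACLY, 3 higher and 1 lower, where 36.7% of all tested genes were called, 18.4% higher and 18.3% lower. In siACO1, 2 of 4 genes (NLRC5 and B2M) were called, both higher, against 37.1% of all tested genes, 17.8% higher and 19.3% lower. In siSLC25A1, 1 of 4 (HLA-B) was called, higher, against 19.6% of all tested genes, 10.3% higher and 9.27% lower. With 4 genes these shares are coarse, and the count in siACO1 is close to its background. With libraries scaled by their totals alone, the called genes were higher in 61.0% of cases in siACLY and 59.5% in siACO1, against 50.1% and 47.9% under TMM, and no direction of the 4 genes turned. The median log2 fold change of the 4 genes was 0.33 in siACLY, 0.31 in siACO1 and −0.08 in siSLC25A1, beside 0.01, 0.01 and −0.00 over all tested genes. The 3 comparisons share the siControl libraries, so a high or low control moves all of them together.

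Set against the other knockdowns, siACLY stood apart for HLA-B and TAPBP. HLA-B was lower in siSLC25A1 than in siACLY by 0.90 on the log2 scale (−0.90, SE 0.18, edgeR adjusted p = 0.000254) and higher in siACLY than in siACO1 by 1.02 (SE 0.18, edgeR adjusted p = 3.44e-05). Between siSLC25A1 and siACO1 its difference was 0.12 (95% interval −0.29 to 0.53, edgeR adjusted p = 0.678), which leaves room for differences of either sign. TAPBP was lower in siACLY than in siACO1 (−1.35, SE 0.33, edgeR adjusted p = 0.00147) and higher in siSLC25A1 than in siACLY (1.03, SE 0.35, edgeR adjusted p = 0.0222). The last call was lost without siACLY replicate 1 (0.95, adjusted p = 0.0831), siACLY replicate 2 (0.84, adjusted p = 0.0904) or siSLC25A1 replicate 1 (0.85, adjusted p = 0.116). Between siSLC25A1 and siACO1, TAPBP differed by −0.32 without passing the test (edgeR adjusted p = 0.422).

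For NLRC5 the split ran between siSLC25A1 and the other two knockdowns. It was lower in siSLC25A1 than in siACLY (−0.76, SE 0.13, edgeR adjusted p = 6.35e-05) and than in siACO1 (−0.66, SE 0.13, edgeR adjusted p = 0.000247). Between siACLY and siACO1 it differed by 0.10 (95% interval −0.15 to 0.35, edgeR adjusted p = 0.548). B2M did not pass the test in the 3 comparisons between knockdowns. Its largest difference was −0.14 for siSLC25A1 against siACO1 (95% interval −0.25 to −0.02, edgeR adjusted p = 0.0550), which passed in 4 alternative settings with adjusted p-values between 0.0114 and 0.0464. In all, 3 of the 4 genes were called between siSLC25A1 and siACLY, 1 higher and 2 lower, where 33.8% of all tested genes were called, 17.5% higher and 16.3% lower. Between siSLC25A1 and siACO1, 1 of 4 was called, lower, against 42.1% (21.8% higher and 20.3% lower), and between siACLY and siACO1 1 was higher and 1 lower, against 42.1% (21.4% higher and 20.7% lower). The median log2 fold changes of the 4 genes were −0.41, −0.23 and 0.02, beside −0.01, −0.01 and −0.00 over all tested genes.

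**Figure D3:**
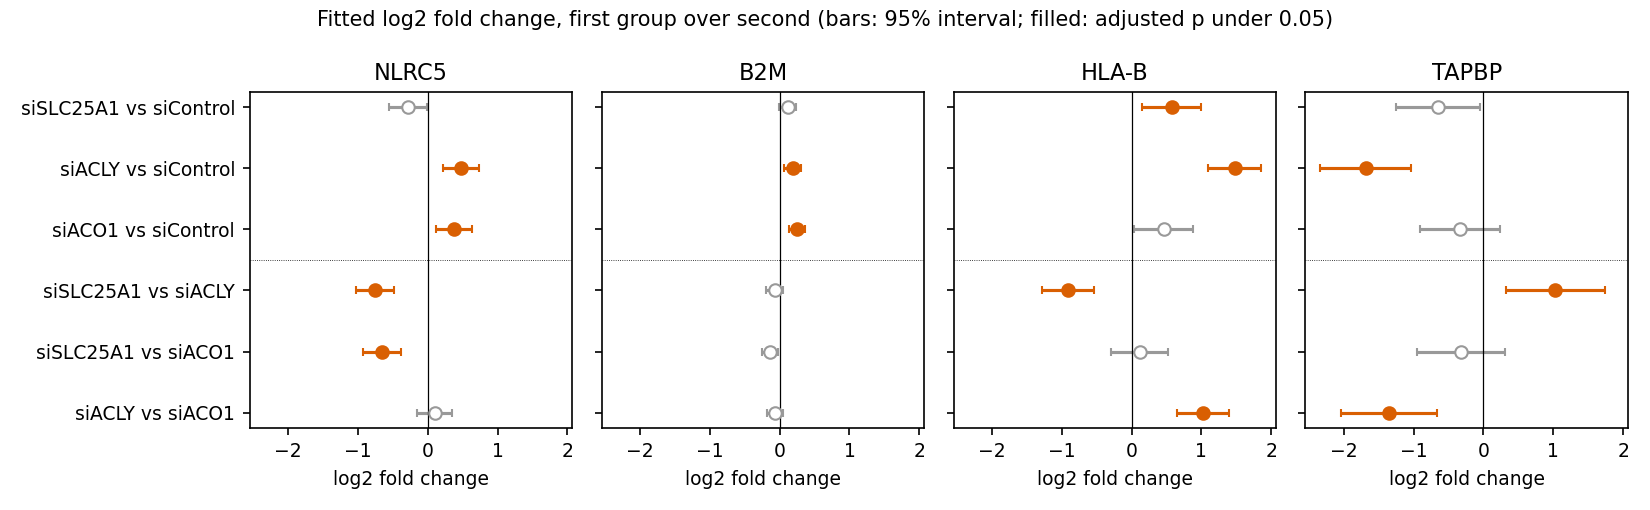
Log2 fold changes of NLRC5, B2M, HLA-B and TAPBP in the 6 comparisons, each as the first group minus the second, with 95% intervals from the edgeR fit; filled points passed the test at an adjusted p under 0.05. The largest differences are those of siACLY from siControl, 1.48 for HLA-B and −1.69 for TAPBP. The largest difference of B2M is 0.25, for siACO1 against siControl.

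The proteins around class I loading were followed in gene lists fixed for this description. Of 17 genes for peptide supply and endoplasmic reticulum chaperones, 13 were tested, and PSMB8 and PSMB9, inducible proteasome subunits, and PSME1 and PSME2, subunits of the proteasome activator, were at 0 counts and had transcripts outside the primary assembly. PSMB10, another inducible subunit, had group means of 3.55 to 4.00 CPM and was not called against siControl. Its level is uncertain, since 34.8% of its exon bases overlap another gene. In siACLY 1 of the 13 was called higher and 4 lower, with a median log2 fold change of −0.09, where 36.7% of all tested genes were called, so this share is near its background. ERAP1, the aminopeptidase that trims peptides in the endoplasmic reticulum, rose from 15.4 to 22.3 CPM (0.53, SE 0.08, edgeR adjusted p = 8.86e-06), while its relative ERAP2 fell from 6.99 to 5.33 CPM (−0.40, SE 0.12, edgeR adjusted p = 0.00881). The cytosolic peptidase gene THOP1 fell as well, from 219 to 179 CPM (−0.28), and so did UGGT1, the glucosyltransferase of glycoprotein quality control (−0.15, with overlapping libraries).

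In siSLC25A1, 4 of the 13 genes were called higher and 1 lower, with a median of 0.14, where 10.3% of all tested genes were called higher and 9.27% lower. UGGT1 rose from 177 to 223 CPM (0.34), PDIA3, the ERp57 disulphide isomerase of the loading complex, from 312 to 365 CPM (0.23), and CALR, the lectin chaperone calreticulin, from 1123 to 1296 CPM (0.21, SE 0.05, edgeR adjusted p = 0.00423). The peptidase gene BLMH fell by 0.28 on the log2 scale. In siACO1 3 genes (BLMH, CALR and PDIA3, named after their values were seen) were called higher and 4 lower (median 0.03), where 37.1% of all tested genes were called, and the 4 with the largest changes were all lower: the peptidases THOP1 (−0.47), TPP2 (−0.38) and LNPEP (−0.28), and CANX, the lectin chaperone calnexin (−0.28). CANX had transcripts outside the primary assembly and its siACO1 libraries overlapped the controls.

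Of 24 regulators of class I transcription, 23 were tested, IRF9 being at 0 counts with transcripts outside the primary assembly. The counts were 5 higher and 6 lower in siACLY, 5 and 3 in siACO1, and 3 and 4 in siSLC25A1, with medians of 0.03, −0.02 and −0.01. Over all tested genes 36.7%, 37.1% and 19.6% were called, so the count in siACO1 does not exceed its background. IRF1, an interferon-induced activator of class I genes, was at 4.80 ± 0.898 CPM in siControl and fell to 2.86 ± 0.308 CPM in siACLY (−0.73, SE 0.15, edgeR adjusted p = 0.000359) and to 2.51 ± 0.0551 CPM in siSLC25A1 (−0.93, SE 0.16, edgeR adjusted p = 8.52e-05). RFXANK, a subunit of the RFX complex through which NLRC5 acts, fell in the same 2 knockdowns (−0.44 in siACLY and −0.33 in siSLC25A1). In siACLY both of these regulators were among the 6 called lower, beside 5 called higher. The part of any regulator in the class I values was not tested. In GENCODE 29, 22.0% of the exon bases of IRF1 and 23.3% of those of RFXANK overlap another gene, and whether the counting used strand is not given in the sources used here, so both are uncertain.

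Among receptors and kinases of interferon signalling, JAK2, a kinase of the interferon-gamma receptor, rose in siACLY (0.41, SE 0.08), and so did the receptor chain IFNGR1 (0.27). The kinase JAK1 went the other way there, at 80.7 ± 1.59 CPM against 93.7 ± 4.92 CPM in siControl, with every siACLY library below every control. This value was picked after it was seen. In siSLC25A1 the other receptor chain, IFNGR2, fell from 20.5 to 13.4 CPM (−0.61) and the kinase JAK1 rose (0.29), and IFNGR2 had 6 transcripts outside the primary assembly. In siACO1 STAT2, a transcription factor of the type I interferon pathway, rose from 34.5 to 50.1 CPM (0.54) and the receptor chain IFNAR2 from 3.60 to 4.91 CPM (0.44), though 83.2% of the exon bases of IFNAR2 overlap another gene. NFKB1 (−0.25) and the NF-Y subunit gene NFYB (−0.20) fell there. All 9 interferon genes of the list were at 0 counts in every library.

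Among 12 class I-like proteins and ligands of natural killer receptors, 7 were tested, and HLA-G, MICA and MICB were at 0 counts with transcripts outside the primary assembly. In siACLY 5 of the 7 were called higher and 1 lower, with a median of 0.47, where 18.4% of all tested genes were called higher and 18.3% lower. In siACO1 4 were higher and 0 lower, with a median of 0.25, where 17.8% were called higher and 19.3% lower. In siSLC25A1 0 were called, with a median of 0.10, where 19.6% of all tested genes were called. In siSLC25A1 1 of the 7 had an unadjusted p under 0.05 by edgeR, and DESeq2 called 0. PROCR, the endothelial protein C receptor with a class I-like fold, rose from 3.12 to 8.14 CPM in siACLY (1.36, SE 0.15) and to 4.81 CPM in siACO1 (0.62). MR1, which presents vitamin B metabolites to T cells, rose from 16.8 to 23.3 CPM in siACLY (0.47) and to 30.0 CPM in siACO1 (0.84). ULBP1 and ULBP2, ligands of the activating receptor NKG2D, rose in siACLY (0.75 and 0.51), and so did ULBP3 (0.44, a gene named after its values were seen). FCGRT, the neonatal Fc receptor, and HFE, which binds the transferrin receptor, rose in siACO1 (0.72 and 0.25), and both pair with beta-2 microglobulin. In siACLY HFE was the 1 gene of the list that fell (−0.41, SE 0.07, edgeR adjusted p = 2.04e-05), from 31.6 to 23.9 CPM, and this value too was picked after it was seen.

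Of 7 genes listed for the removal of class I molecules from the surface, 5 were tested. In siACLY 0 were called by edgeR (median 0.01), where 36.7% of all tested genes were called, 0 had an unadjusted p under 0.05, and DESeq2 called 0. In siACO1 1 was called higher and 1 lower, where 37.1% of all tested genes were called. In siSLC25A1 1 was called, higher, where 19.6% were called. Both of these counts are near their background. TMEM127 rose in siACO1 (0.16) and siSLC25A1 (0.15), and WWP2, a ubiquitin ligase, fell in siACO1 (−0.17). Of 9 MHC class II genes 1 was tested, CD74, the invariant chain, at 0.240 to 0.320 CPM in the group means. It was not called in any knockdown by edgeR or DESeq2, and its unadjusted p was not under 0.05.

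**Figure D4:**
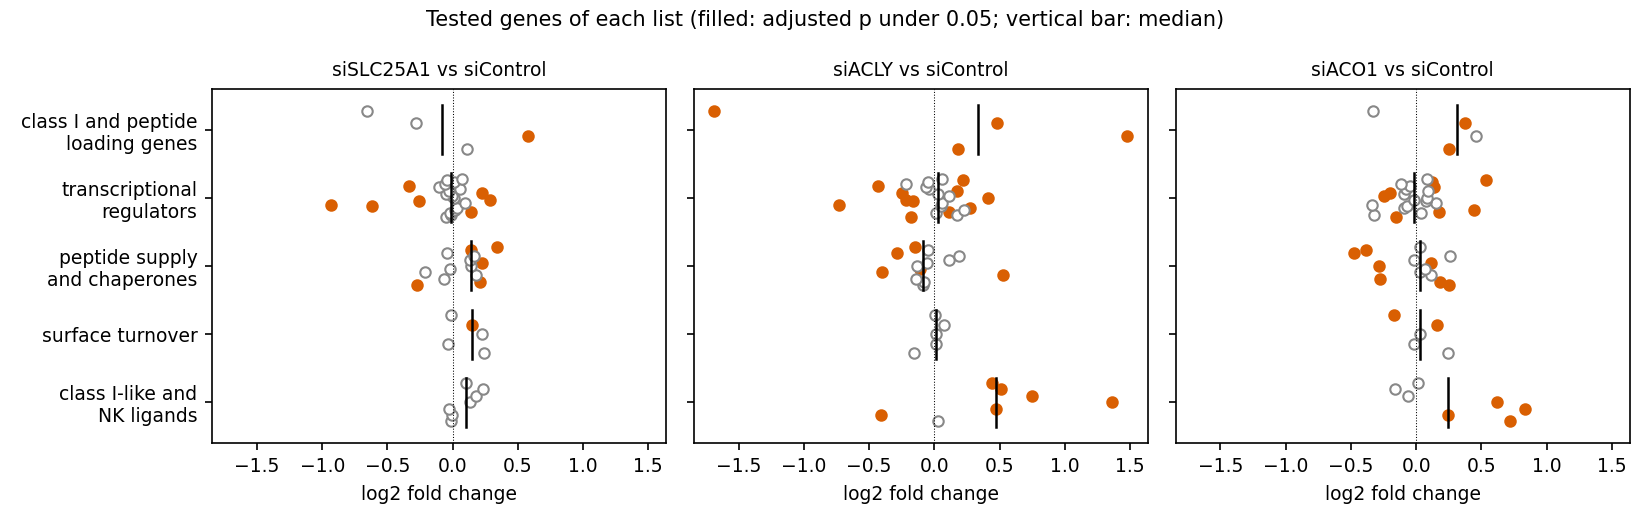
Log2 fold changes against siControl of every tested gene of each list, by knockdown, with the list's median as a bar; filled points passed the test at an adjusted p under 0.05. The class I-like list has medians of 0.47 in siACLY, 0.25 in siACO1 and 0.10 in siSLC25A1 and holds genes on both sides of 0 in each of them.

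The genes most like the mean of NLRC5 and B2M were ranked by Pearson correlation of log2 CPM over the 12 libraries with that mean, which holds the members that averaged 5 CPM or more and leaves out HLA-B and TAPBP, among 9966 candidates. MKS1 (r = 0.951), NBDY (0.948), INSIG1 (0.948), LGALS8 (0.947) and DELE1 (0.942) came first. The libraries fall into 4 groups, so these values mostly describe the order of the group means: NBDY, for example, stood at 8.65 ± 1.54 CPM in siControl, 7.30 ± 1.29 in siSLC25A1, 18.1 ± 1.22 in siACLY and 14.1 ± 0.418 in siACO1. For B2M alone the genes were BTF3L4 (0.918), CDC37L1 (0.907), CTBP1-DT (0.896), RAB18 (0.886) and ITM2B (0.885).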

How the data were processed

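Read counts were deposited by the authors as 1 table of genes, in whole numbers without normalization, with 1 column for each of the 12 libraries, per the file headers and the values. Per the submitters' processing notes, STAR 2.7.0e, Trim Galore, FastQC, CASAVA and DESeq2 were named without roles, and so were the builds GRCh38 and GRCm39. The counting tool, the annotation and the use of strand are not given in the sources used here, so overlapping genes and multi-mapping reads may be split in ways that are not known.

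Symbols were matched for 62700 of 70116 identifiers (89.4%), and unmatched identifiers, at most 0.148% of the counts of a library, stayed in the totals. Genes were kept with edgeR's filterByExpr, scaled by TMM and fitted with a robust quasi-likelihood model of the 4 groups (edgeR 4.0.16, R 4.3.3, 8 residual degrees of freedom, common biological coefficient of variation 4.89%). Tests were two-sided with Benjamini-Hochberg adjustment over 16197 genes, with calls made at an adjusted p under 0.05. The scripts were tested on simulated data. The count scale is relative to the library total, so a change in total RNA is not seen. HLA-B and TAPBP had the fewest counts of the 4 tested genes, 40 to 174 and 7 to 48 per library, so counting error is largest for them.

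The genes described and the lists were chosen with earlier results of these data known. Named genes were the 9 genes, the targets, up to 4 called genes of each list per knockdown with the largest change and at least 1 CPM, and the 5 most alike genes; names beyond these were picked with their values in view. Genes that share 20% or more of their exon bases with another gene are uncertain, among them IRF1, RFXANK, IFNAR2, PSMB10, LYZ and VIM (24.4%). HLA-F, TAP2 and IRF9, at or near 0 counts, pass this share too. It was not worked out for the most alike genes. Genes were placed with GENCODE 29, and promoter sequences are RefSeq's. Alternatives were other scaling, other filters, DESeq2 1.42.0, a fit of the compared groups only, a replicate block and each library left out.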

Additional observations from a re-analysis of the deposited data

Results flagged for a closer look

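These differences between knockdowns passed a test of the difference itself (edgeR quasi-likelihood F test, log2 scale, first group minus second), which is what set them apart. HLA-B differed by −0.90 between siSLC25A1 and siACLY (SE 0.18, adjusted p = 0.000254) and by 1.02 between siACLY and siACO1 (SE 0.18, adjusted p = 3.44e-05). NLRC5 differed by −0.76 between siSLC25A1 and siACLY (SE 0.13, adjusted p = 6.35e-05) and by −0.66 between siSLC25A1 and siACO1 (SE 0.13, adjusted p = 0.000247). TAPBP differed by 1.03 between siSLC25A1 and siACLY (SE 0.35, adjusted p = 0.0222) and by −1.35 between siACLY and siACO1 (SE 0.33, adjusted p = 0.00147).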

How the results depend on the processing

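Of 306 values of single genes under the alternatives, 283 kept their direction and side of the threshold, 17 lost their call, 6 gained one and 0 reversed, and 17 of 24 results kept theirs throughout. The number of the 4 genes called in siSLC25A1 went from 1 to 0 with no filter on low counts, with only the groups compared and with the replicate block, and ranged from 0 to 1 with a library left out; HLA-B was the call lost. Between siSLC25A1 and siACO1 it went from 1 to 2 with at least 10 counts in every library, with library totals alone and with the replicate block, and ranged from 1 to 2 with a library left out; B2M was the call gained. Between siACLY and siACO1 it went from 2 to 1 with at least 10 counts in every library, since TAPBP was then not tested, and it gave no value for TAPBP in any comparison. With a library left out, the count ranged from 1 to 3 in siACO1, 3 to 4 in siACLY, and 2 to 3 between siSLC25A1 and siACLY.

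With library totals alone, the share of called genes that were higher moved from 51.8% to 41.0% between siSLC25A1 and siACLY and from 51.8% to 42.2% between siSLC25A1 and siACO1. Replicate numbers did not pair the libraries: 0 of 18 pairs with the same number had a correlation of deviations over 0.1 (−0.0340 to 0.0672), and 6 of 12 libraries correlated best with their own number. With the replicate block, 3270 genes were called in siSLC25A1, 6038 in siACLY and 6093 in siACO1, against 3173, 5944 and 6008 without it. HLA-C, HLA-E, HLA-F, TAP1 and TAP2 have no test reported here, and HLA-B and TAPBP rest on few counts; what made these counts low was not tested.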
